A study of Mus musculus with 12 samples.

Results

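The genes described here encode the proteins of the cytosolic ribosome. They were taken as every entry of the deposited table whose symbol begins with Rpl or Rps and continues with a number (with or without a final a, l or x), with p0, p1 or p2, or with a alone. This gave 81 of 24421 entries, of which 46 belong to the large (60S) subunit, 3 to its acidic stalk (Rplp0, Rplp1 and Rplp2) and 32 to the small (40S) subunit. Among them, 76 are core subunit genes and 5 are paralogs (Rpl3l, Rpl10l, Rpl39l, Rps27l and Rps4l). The pattern leaves out Rps3a1, the fusion gene Fau, the paralogs Rpl22l1, Rpl7l1 and Rpl36al, and entries named as pseudogenes.

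Cells carrying green fluorescent protein (GFP) were sorted from dissociated cerebellum of Aldh1l1-GFP mice at postnatal day 1 (P1), P7, P14 and P28, with 3 RNA libraries per time point and 12 in all. All 4 groups share the reporter, in which GFP is driven by the promoter of Aldh1l1, a gene used as a marker of astrocytes, so each library holds whatever cerebellar cells passed the GFP gate. Animals of both sexes were used, no group received a treatment, and the labels do not tell how many animals stand behind a library. Between 6399499 and 14733985 reads per library fell on genes, and values below are DESeq2-normalized counts as deposited.

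Each ribosome holds one copy of nearly every ribosomal protein, and cells make the subunits in the nucleolus from ribosomal RNA and proteins imported from the cytoplasm. Most of the proteins' mRNAs begin with a C followed by a run of pyrimidines, the 5′ terminal oligopyrimidine (TOP) motif, through which mTORC1 and the RNA-binding protein LARP1 control their translation. Transcript levels of these genes are known to be high in growing and dividing cells. Windows of 80 bases around the transcription start are shown for a few members, since the TOP motif is read from the first base. In the lines that follow, capitals mark the pyrimidine run at the annotated start, which has 60 bases before it in each window, and the letters CCGGAAG (found in Rpl38 and Rpl41 on this strand), which hold the core bound by ETS-family transcription factors. The sequences are RefSeq's on GRCm38.p6. The windows lie at chr4:86857348-86857427 (minus strand) for Rps6, chr7:118116128-118116207 (minus strand) for Rps15a, chr11:114668520-114668599 (plus strand) for Rpl38, chr14:18270967-18271046 (minus strand) for Rpl15, chr7:141447591-141447670 (plus strand) for Rplp2 and chr10:128549149-128549228 (minus strand) for Rpl41. The first 5 carry a pyrimidine run at the start and Rpl41 does not. This choice does not reflect the members at large, of which 13 of the 60 with a window carry such a run. Rps4x, Rpl36a and Rplp0, named below for strong falls, have windows without a run and are not shown.
Rps6: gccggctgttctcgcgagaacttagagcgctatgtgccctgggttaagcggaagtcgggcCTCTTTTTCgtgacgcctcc
Rps15a: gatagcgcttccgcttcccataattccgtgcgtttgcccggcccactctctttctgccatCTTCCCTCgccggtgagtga
Rpl38: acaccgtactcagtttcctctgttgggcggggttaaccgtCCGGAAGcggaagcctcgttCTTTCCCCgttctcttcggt
Rpl15: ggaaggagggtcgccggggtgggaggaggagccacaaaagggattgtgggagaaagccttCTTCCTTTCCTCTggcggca
Rplp2: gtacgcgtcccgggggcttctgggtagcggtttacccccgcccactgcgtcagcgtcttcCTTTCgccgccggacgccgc
Rpl41: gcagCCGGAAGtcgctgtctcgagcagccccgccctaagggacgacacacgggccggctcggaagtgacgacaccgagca

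A RefSeq promoter window was at hand for 60 of the 81 members, in 72 windows of 300 bases (250 before the start and 50 from it). A C at the annotated start followed by at least 4 pyrimidines was found in 18.1% of the member windows and in 2.51% of all 32851 windows. A run of at least 8 pyrimidines within 25 bases of the start was found in 45.8% of member windows and 19.7% of all windows. CCGGAAG on either strand was found in 36.1% of member windows against 8.86% of all windows, and TATAAA on the sense strand in 6.94% against 8.32%. These shares describe letters around annotated starts, which can lie a few bases from the start used in a cell.

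Members took a growing and then a shrinking share of the transcriptome over the first postnatal month. They held 1.87%, 2.20% and 1.88% of reads on genes in the 3 libraries at P1, 2.41%, 2.45% and 2.47% at P7, 1.03%, 0.987% and 1.16% at P14, and 0.876%, 0.884% and 0.935% at P28. Each share had a 95% Wilson interval of at most ±0.012 percentage points, which covers counting error only. The libraries of the 4 time points did not overlap in this share. On the scale of normalized counts, the summed level was 84.5% of the P7 mean at P1, 51.8% at P14 and 51.8% at P28 (SD 9.57, 4.18 and 3.90 percentage points, n = 3 each). The loss from P14 to P28 is thus seen in the share of reads and not in the normalized counts. Scaled by library totals alone, the summed levels at P14 and P28 were 43.3% and 36.7% of that at P7. In bulk RNA of sorted cells, fewer cells of a type with high levels and less RNA per cell cannot be told apart. The 77 genes for ribosomal proteins of mitochondria, which are built separately from the cytosolic ones, held 0.150% to 0.182% of reads over the 12 libraries with no such step.

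**Figure D1:**
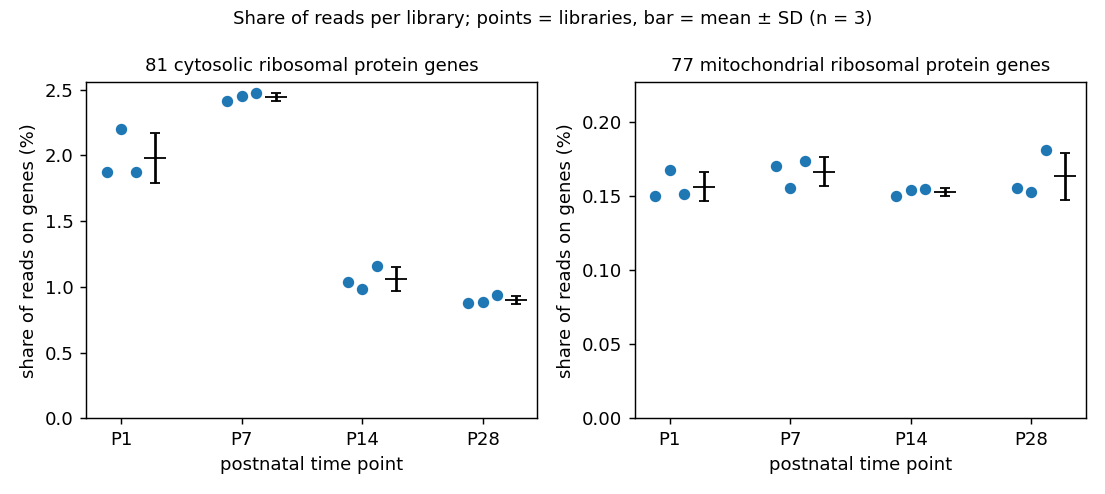
Share of reads on genes (%) held by the 81 cytosolic (left) and 77 mitochondrial (right) ribosomal protein genes in each library against postnatal time point, with the mean and SD of 3 libraries as black bars. The cytosolic share lay between 2.41% and 2.47% at P7 and between 0.987% and 1.16% at P14, while the mitochondrial share stayed between 0.150% and 0.182%.

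Of the 81 members, 74 passed the filter on low values, which asked 3 or more libraries for a normalized count of 10 or more, and were tested. They were 40 of the 60S, 3 of the stalk and 31 of the 40S members. A moderated F test over the 4 time points (limma, Benjamini-Hochberg adjusted over 15464 genes) called 63 of the 74, where 43.8% of all genes tested were called. The mean was highest at P7 for 68 of the 74, against 26.5% of all genes tested. It was lowest at P14 for 32 and at P28 for 40. In 50 of the 74, all 6 libraries of P1 and P7 lay above all 6 of P14 and P28, an order seen in 8.25% of all genes tested. The largest F belonged to Rps4x, Rplp0 and Rps24, and the smallest to Rps4l, Rps27l and Rps29. Rps24, a 40S protein, had normalized counts of 3307, 3236 and 3681 at P1, 4483, 4824 and 4473 at P7, 1991, 1937 and 2218 at P14 and 1507, 1932 and 1282 at P28.

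**Figure D2:**
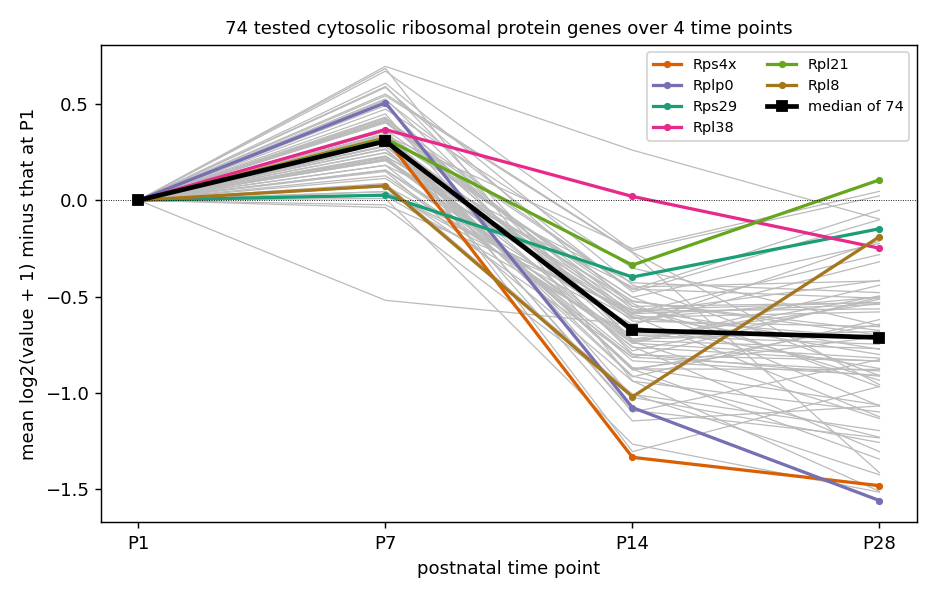
Mean log2(normalized count + 1) of each of the 74 tested members (grey) at 4 postnatal time points, minus its mean at P1, with the median over members in black and 6 named members in colour. The median was 0.31 at P7 and -0.71 at P28, while Rpl21 ended above its P1 mean and Rplp0 and Rps4x ended lowest of the 6.

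From P1 to P7, 71 of the 74 members had a positive log2 fold change, but none passed the test on its own. The median was 0.31, against 0.04 over all genes tested, with a range from -0.52 (Rps4l) to 0.70 (Rps27l). limma called 0 of 74 in either direction at an adjusted p under 0.05, where 3.47% of all genes tested were called higher and 4.24% lower. At an unadjusted p under 0.05, 15 members were higher and 0 lower, against 9.64% and 9.67% of all genes tested. DESeq2 called 2 higher and edgeR 0. The P7 libraries lay wholly above the P1 libraries for 34 of 74 members, where 20.1% of all genes tested did so. By subunit the median was 0.27 for the 60S and 0.32 for the 40S. Of the 3 members with negative values, Rps20 (-0.04) and Rpl41 (-0.02) lay near 0 and Rps4l was a low-count entry.

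Rpl36a, a 60S protein of the X chromosome, had 454, 582 and 557 at P1 and 826, 915 and 810.0 at P7, with no overlap (log2 fold change 0.68, SE 0.26, limma adjusted p = 0.142). In contrast, Rpsa, the 40S protein also known as the laminin receptor, had 16135, 8882 and 9979 at P1 and 11332, 11401 and 11283 at P7. Its highest library was at P1 and its P7 libraries lay close together inside the P1 range (log2 fold change 0.01, SE 0.20, limma adjusted p = 0.991). One P1 library, replicate 2, held the highest value of its group for 60 of the 74 members. Without it the median step from P1 to P7 was 0.41 and the count of calls was still 0.

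From P7 to P14 the members fell together. All 74 had a negative log2 fold change, and 62 of the 74 were called lower and 0 higher (limma, adjusted p under 0.05), where 10% of all genes tested were called lower and 10.8% higher. The median was -0.97, a 1.96-fold lower level, against -0.09 over all genes tested, and single members ranged from -1.68 to -0.13. For 69 of 74 members every P14 library lay below every P7 library, an order seen in 24.8% of all genes tested. This step and the one from P1 to P7 share the P7 libraries. The fall took in 34 of 40 tested 60S members (median -0.93), 3 of 3 stalk members and 25 of 31 tested 40S members (median -0.98). DESeq2 called 64 lower and edgeR 60. Leaving out each library in turn gave 52 to 67.

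The lowest log2 fold changes belonged to Rps15a, Rps4x and Rpl36a. Rps15a, a 40S protein, had normalized counts of 2375, 2553 and 2503 at P1, 3081, 3480.0 and 3078 at P7, 893, 1214 and 926 at P14 and 1077, 1073 and 1758 at P28. Its P14 and P28 libraries overlapped and all lay below those of P1 and P7, with a 3.2-fold lower level at P14 (log2 fold change -1.68, SE 0.20, limma adjusted p = 3.42e-05). Rps4x, the X-linked copy of the 40S protein eS4, had 1648, 1975 and 1596 at P1, 2129.9, 2361 and 2024 at P7, 696, 731 and 635 at P14 and 514, 589 and 786 at P28. It was low at both P14 and P28, with no overlap with either earlier time point (log2 fold change -1.66, SE 0.18, limma adjusted p = 2.13e-05). Rpl36a had 321, 272 and 239 at P14 and 257, 139 and 176 at P28, against at least 810.0 in every P7 library (log2 fold change -1.62, SE 0.26, limma adjusted p = 0.000458). Rplp0, the scaffold of the acidic stalk that recruits elongation factors to the 60S subunit and a common reference gene for quantitative PCR, had 1181, 1393 and 1243 at P1, 1829, 1792 and 1789 at P7, 649, 481 and 696 at P14 and 335, 486 and 489.5 at P28. Its P7 libraries differed by little and lay far above those of P14 (log2 fold change -1.58, SE 0.20, limma adjusted p = 6.98e-05), a 2.99-fold difference. Rpsa had 4409, 4868 and 4789 at P14 and 3865, 3343 and 4737 at P28, all under the lowest library at P1 or P7 (log2 fold change -1.28, SE 0.20, limma adjusted p = 0.000328).

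**Figure D3:**
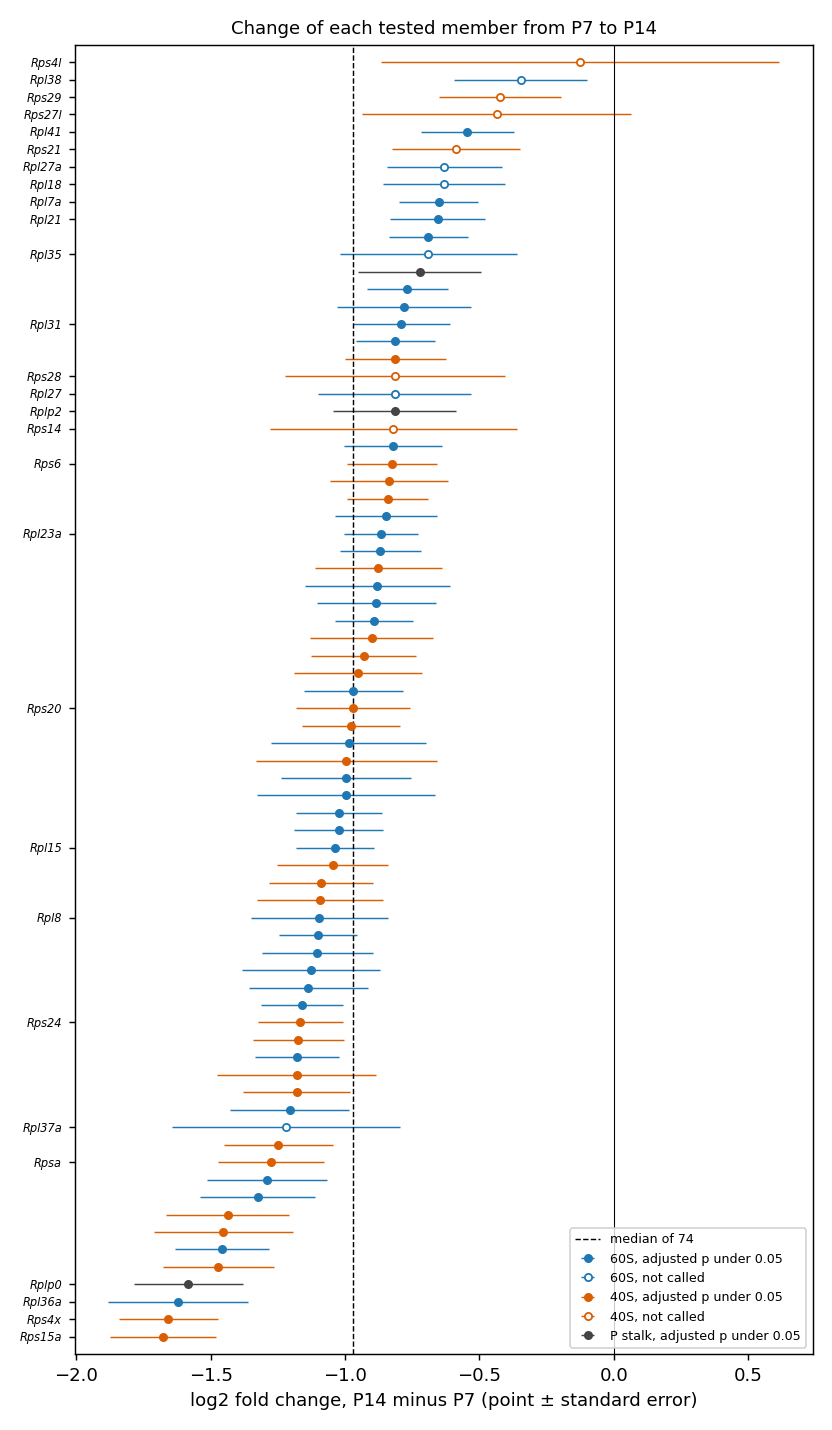
Log2 fold change from P7 to P14 of each of the 74 tested members with its standard error (limma), ordered by size and coloured by subunit, with filled points at an adjusted p under 0.05. Names are given for the members that the text describes, all points lie below 0, 62 are filled, and the dashed line marks the median of -0.97.

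The 12 members not called lower were Rpl18, Rpl27, Rpl27a, Rpl35, Rpl37a, Rpl38, Rps14, Rps21, Rps27l, Rps28, Rps29 and Rps4l. They were not all small changes. Rpl37a had a log2 fold change of -1.22 with an SE of 0.43. Rps14 was wide in spread, with 452, 461 and 510.0 at P7 and 214, 156 and 577 at P14, where the third P14 library exceeded all P7 libraries (log2 fold change -0.82, SE 0.46, limma adjusted p = 0.245). Without that library Rps14 passed the threshold. The same library, P14 replicate 3, was the highest of its group for 48 of the 74 members, and without it 61 members were called lower with a median of -1.04. Its summed level of 4 choroid plexus markers was 877, against 63304 and 108741 in the other P14 libraries. Other marker sums differed too. The same library had the highest sums of its group for neurons (45047, against 26386 and 31368), granule neurons and their precursors (23917, against 12914 and 16992) and the oligodendrocyte lineage (353040, against 292099 and 320770). Its astrocyte sum was the lowest (161613, against 183132 and 203674). The part of these differences in the members' values was not tested.

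Rpl38 and Rps29 were among the members with small changes. Rpl38, a small 60S protein known for tissue-specific skeletal defects when its gene is mutated in mice, had 628, 1106 and 792 at P1, 1145, 1079.7 and 954 at P7, 682, 751 and 1119 at P14 and 785, 749 and 557 at P28. The ranges of P7 and P14 overlapped through the third P14 library (log2 fold change -0.35, SE 0.25, limma adjusted p = 0.376). Rps29, a zinc-binding 40S protein, had 5714, 10056 and 5675 at P1, 7292, 6362 and 7430.5 at P7, 4389, 4931 and 6582 at P14 and 5052, 6204 and 7650.1 at P28. Here too P7 and P14 overlapped, and the second P1 library was the highest of all (log2 fold change -0.42, SE 0.23, limma adjusted p = 0.22). Per kilobase of transcript, Rps29 had the highest mean of all members, 16525 normalized counts per kb over the 12 libraries, followed by Rpl7a with 9129. Rpl7a, a 60S protein, had 8689, 10843 and 8151 at P1, 10571, 9569.7 and 12099.9 at P7, 7277, 6229 and 6956 at P14 and 6224, 6409 and 7106 at P28. Every P14 library was below every P7 library (log2 fold change -0.65, SE 0.15, limma adjusted p = 0.00546). Rpl41, whose product is the smallest ribosomal protein, had 2034, 2353 and 2638 at P7 and 1478, 1593 and 1727 at P14 (log2 fold change -0.54, SE 0.17, limma adjusted p = 0.0379). It lost the call with edgeR and TMM and in 5 of the 12 fits without a library, those without P7 replicates 2 and 3 and without each P14 replicate.

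To see which members left the common course, log2 values were also taken relative to the median of the tested members in the same library and fitted again over all genes, a choice made after seeing the data. In the step from P7 to P14, 6 members then passed an adjusted p under 0.05. Subtracting the members' median (-0.97, against -0.09 over all genes tested) moved other genes up on this scale. Their small p-values entered the same adjustment and eased the cutoff. The adjusted p-values are thus no error rate among the members, and the calls serve as a ranking. Rpl38 (relative log2 fold change 0.73, SE 0.24, limma adjusted p = 0.0219) and Rps29 (0.66, SE 0.19, limma adjusted p = 0.00981) fell less than the median, as did Rpl41 (0.54, SE 0.18, limma adjusted p = 0.0222) and Rpl7a (0.43, SE 0.17, limma adjusted p = 0.0455). Rps15a (-0.60, SE 0.23, limma adjusted p = 0.0449) and Rps4x (-0.58, SE 0.22, limma adjusted p = 0.0405) fell more. Between P1 and P7, and between P14 and P28, 0 members were called on this scale.

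**Figure D4:**
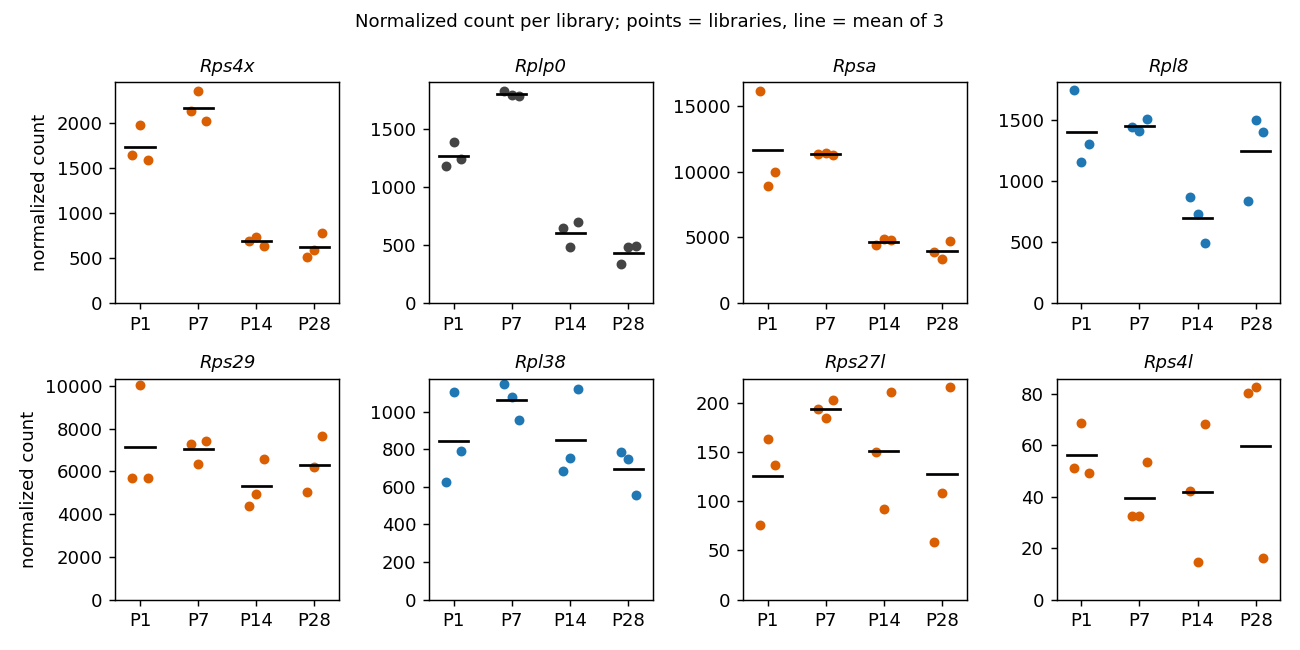
Normalized count of 8 members in each of the 12 libraries by postnatal time point, with the mean of 3 libraries as a line, in blue for 60S, orange for 40S and dark grey for the stalk. Rps4x, Rplp0 and Rpsa separate P1 and P7 from P14 and P28, Rps29 and Rpl38 overlap between P7 and P14, and Rps27l and Rps4l stay at or under 216 and 82.6 normalized counts with wide spread at P14 and P28.

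From P14 to P28 there was no common direction. The log2 fold change was positive for 31 and negative for 43 of the 74, with a median of -0.05, against -0.12 over all genes tested. limma called 1 member higher and 0 lower, where 5.68% of all genes tested were called higher and 8.76% lower. At an unadjusted p under 0.05, 3 were higher and 8 lower, against 12% and 18% of all genes tested. DESeq2 called 2 higher and 2 lower, and edgeR 1 and 0. Scaled by library totals alone, 8 were lower, 0 higher, and the median was -0.28, with the median of all genes at -0.35.

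The member called was Rpl8, a 60S protein, with 1744, 1153 and 1303 at P1, 1444, 1408 and 1508 at P7, 872, 727 and 495 at P14 and 840.3, 1499 and 1404 at P28. Its level was lowest at P14, and the ranges of P14 and P28 overlapped because the first P28 library lay near P14 (log2 fold change 0.83, SE 0.25, limma adjusted p = 0.042). The call was lost in 8 of the 12 fits without a library (P1 replicate 3, each P7 replicate, P14 replicates 2 and 3, and P28 replicates 2 and 3), and over all alternatives the adjusted p from limma, edgeR or DESeq2 ran from 0.00919 to 0.177. Rpl21, a 60S protein, did not pass the test and went from 2467, 2178 and 2728 at P14 to 2546, 4035 and 3581 at P28 (log2 fold change 0.44, SE 0.18, limma adjusted p = 0.107). At the other end, Rps28, a 40S protein, had 151, 117 and 211 at P14 and 78.9, 109.7 and 39.2 at P28. All P28 libraries were below all P14 libraries, at low counts (log2 fold change -1.14, SE 0.41, limma adjusted p = 0.0772). Rpl36a (-0.57) and Rps14 (-0.69) had the next lowest log2 fold changes and did not pass the test.

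Over the whole span from P1 to P28, 51 of the 74 were called lower and 0 higher, where 20% of all genes tested were called lower and 14.6% higher. The median was -0.71, against -0.24 over all genes tested. Of these, 26 were 60S, 3 stalk and 22 40S members. Called lower in both the P7 to P14 step and the whole span were 48 members, of 62 and 51. Over all genes tested, 10% and 20% were called lower in these comparisons, and the share called in both was not taken. Without P1 replicate 2, the count of the whole span was 37 and the median -0.61.

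Rplp0 ended lowest relative to P1 (log2 fold change -1.56, SE 0.20, limma adjusted p = 4.70e-05), followed by Rpsa (log2 fold change -1.52, SE 0.20, limma adjusted p = 4.49e-05) and Rpl36a (log2 fold change -1.51, SE 0.26, limma adjusted p = 0.000489). For all 3 the P28 libraries lay below every P1 library. Rpl21 and Rps21 were among the 3 members with the highest values over this span and did not pass the test. Rpl21 had 2913, 3549.5 and 2854 at P1 and 2546, 4035 and 3581 at P28 (log2 fold change 0.11, SE 0.18, limma adjusted p = 0.671). Rps21, a small 40S protein, had 333, 459 and 362 at P1, 501, 453 and 493 at P7, 306, 274 and 392 at P14 and 422, 329 and 439.5 at P28, with P1 and P28 overlapping (log2 fold change 0.05, SE 0.24, limma adjusted p = 0.898). Rps20, a 40S protein that lies at the head of the subunit, had a lower fold change than both, with 2131, 2731 and 2103 at P1, 2079, 2432 and 2238 at P7, 999, 1145 and 1316 at P14 and 1041, 728 and 1343 at P28 and no overlap between P1 and P28 (log2 fold change -1.20, SE 0.21, limma adjusted p = 0.000621).

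Relative to the median of the members, 10 were called over the whole span, with the limit on the adjusted p-values given above for this scale. Above the median were 7, among them Rpl21 (0.93, SE 0.19, limma adjusted p = 0.00103), Rps21, Rpl23a, Rps29 and Rpl31, with relative log2 fold changes from 0.54 to 0.93. Below it were Rplp0 (-0.74, SE 0.21, limma adjusted p = 0.0113), Rpsa (-0.70) and Rps4x (-0.66). Rps29 was above and Rps4x below in both this span and the step from P7 to P14. Rpl23a, a 60S protein at the exit of the peptide tunnel, had 2568, 3255 and 2685 at P1, 3895, 3621 and 3668 at P7, 1906, 2099.9 and 2138 at P14 and 2654, 2671 and 2845 at P28. It was lowest in the 3 P14 libraries and its P28 libraries lay within the P1 range (log2 fold change -0.05, SE 0.14, limma adjusted p = 0.798).

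The balance of the subunits moved less than their sum. The summed normalized counts of 40S members, relative to those of 60S and stalk members, gave ratios of 0.551 to 0.607 at P1 and of 0.546 to 0.580 at P7. The ratios lay between 0.480 and 0.519 at P14 and between 0.480 and 0.503 at P28. The later libraries were thus all lower than the earlier ones. Sums weigh abundant members most, and Rpsa alone makes up a large part of the 40S sum. It fell by more from P7 to P14 than the 40S median, and the ratio without it was not taken. Member medians in that step were -0.93 for the 60S and -0.98 for the 40S. They were -0.02 and -0.14 from P14 to P28, and -0.66 and -0.77 from P1 to P28. Whether the 40S members as a whole shifted against the 60S members was not tested. Without the 2 most abundant members per length, Rps29 and Rpl7a, the summed level of all members at P14 was 50.3% and at P28 49.9% of that at P7.

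The 5 paralogs within the symbol pattern were low or not detected, and neither of the 2 tested was called in any of the 4 comparisons. Rps27l, a close relative of Rps27 known as a p53 target, had 75.7, 163 and 137 at P1, 193, 185 and 203 at P7, 150.4, 92 and 211 at P14 and 58.5, 109 and 216 at P28. The P7 libraries were the tightest, above all P1 libraries, and the P14 and P28 libraries spread on both sides (log2 fold change 0.70, SE 0.50, limma adjusted p = 0.54 from P1 to P7, and log2 fold change -0.43, SE 0.50, limma adjusted p = 0.613 from P7 to P14). Rps4l, annotated as a transcribed processed pseudogene related to Rps4x (chr6:148354656-148355598 on GRCm38), had 51.1, 68.6 and 49.2 at P1, 32.6, 32.7 and 53.5 at P7, 42.4, 14.8 and 68.4 at P14 and 80.4, 82.6 and 16.2 at P28. All 4 time points overlapped (log2 fold change -0.13, SE 0.74, limma adjusted p = 0.934 from P7 to P14). Whether Rps4l and Rps4x differed in their change was not tested.

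The other 3 paralogs did not pass the filter. Rpl10l, a retrogene copy of the X-linked Rpl10 known from the testis, had 0 reads in all 12 libraries, which allows up to 3 reads in each. Rpl39l, the testis-enriched relative of Rpl39, had 4 reads in 1 P7 library and 0 in the other 11. Rpl3l, which replaces Rpl3 in heart and skeletal muscle, had 5, 0 and 0 reads at P1, 1, 5 and 2 at P7, 12, 1 and 62 at P14 and 0 in all 3 P28 libraries, so most of its reads came from 1 library, P14 replicate 3. Of the relatives that the symbol pattern leaves out, Rpl22l1, the paralog of Rpl22, had 193, 349 and 189 at P1, 319, 281 and 319 at P7, 162, 199 and 378 at P14 and 311, 177 and 143 at P28 (log2 fold change -0.41, SE 0.39, limma adjusted p = 0.533 from P7 to P14). Its time points overlapped throughout. Rpl7l1, a relative of Rpl7 known from the assembly of pre-ribosomes, had 239, 189 and 205 at P1, 248, 187 and 194 at P7, 125, 100.5 and 122 at P14 and 83.3, 126 and 104 at P28. Its step from P7 to P14 did not pass the test (log2 fold change -0.85, SE 0.34, limma adjusted p = 0.0943), but it fell over the whole span (log2 fold change -1.02, SE 0.34, limma adjusted p = 0.0308), a call lost with only the time points compared and in 6 of the 12 fits without a library (each P1 replicate, P7 replicates 1 and 3, and P28 replicate 1). Rpl36al, a relative of Rpl36a, had 418, 429 and 546 at P7 and 479.7, 343 and 327 at P14 (log2 fold change -0.29, SE 0.27, limma adjusted p = 0.522). Rpl36al overlapped between P7 and P14 where Rpl36a did not, and the difference between them was not tested.

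Fau, which makes a ribosomal protein as a fusion with a ubiquitin-like protein and encodes the 40S protein eS30, had 775, 909.5 and 582 at P1, 841, 942 and 941 at P7, 659, 641 and 766 at P14 and 273, 511 and 634 at P28. Every P14 library of Fau was below every P7 library, but the change did not pass the test (log2 fold change -0.40, SE 0.28, limma adjusted p = 0.358).

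Of the core members, 4 were at or near 0 throughout and were not tested. Rpl26 had 0 reads in all 12 libraries, Rpl30 at most 2, Rpl34 at most 7 and Rps27 at most 30. The lowest mean over the 12 libraries among the other 72 core members was 175.0 normalized counts (Rps28), against 5.97 for Rps27. The sources used here do not state how reads that fit more than 1 gene were counted, and these 4 have 6, 12, 5 and 4 other annotated genes, mostly pseudogenes, that match their coding sequence at 95% identity or more over at least 80% of its length. Whether that set their values was not tested, so their levels are given without a statement on expression. Of 80 members with a coding sequence, 74 have at least 1 such copy, with a median of 5 and the most, 57, for Rpl21. The fall from P7 to P14 was called for 12 of 15 tested members with at most 2 copies and for 15 of 16 with at least 10. From P1 to P28, 10 of 15 and 10 of 16 were called lower, with medians of -0.89 and -0.61. Over all genes tested, 10% and 20% were called lower in these comparisons. Of the members named as above the members' median over the whole span, Rpl21, Rpl23a and Rpl31 have 57, 19 and 12 copies, while Rps21 and Rps29 have 1 and 6. The part of copies in these changes was not tested.

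Other genes of the translation machinery were taken as lists. Counts of calls from P7 to P14 stand beside the 10% of all genes tested called lower and 10.8% called higher. Among elongation factors and their partners, 5 of 10 tested were called lower and 1 higher from P7 to P14, with a median of -0.74. Eef1a1, the factor that brings aminoacyl-tRNA to the ribosome, had 28081, 29521 and 31004 at P7 and 14170.0, 13689 and 11828 at P14 and fell (log2 fold change -1.16, SE 0.14, limma adjusted p = 4.38e-05). Called higher was Eef1a2, its relative known from neurons and muscle, with 53.3, 68.1 and 92.2 at P7 and 733, 1032 and 1315 at P14 (log2 fold change 3.83, SE 0.47, limma adjusted p = 5.16e-05). Eef2, the translocase, had 8459, 7435 and 7868 at P7 and 5397, 5592 and 5355 at P14 with no overlap but did not pass the test (log2 fold change -0.54, SE 0.21, limma adjusted p = 0.0851).

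Initiation factors had 9 of 30 lower (30%) and 0 higher in this step (median -0.44). Eif4g2, a scaffold of cap-independent initiation, fell (log2 fold change -0.83, SE 0.14, limma adjusted p = 0.000567), while its relative Eif4g3 had 6014, 6207 and 6149 at P7 and 6998, 6708 and 7303 at P14 (log2 fold change 0.19, SE 0.15, limma adjusted p = 0.419). Ribosome biogenesis factors had 9 of 52 lower (17.3%) and 0 higher, with a median of -0.77. The nucleolar proteins Ncl (log2 fold change -1.18, SE 0.14, limma adjusted p = 3.38e-05) and Npm1 (log2 fold change -1.37, SE 0.16, limma adjusted p = 3.61e-05) were among them. Ncl had 6286, 5629 and 5395 at P7 and 2280.1, 2602 and 2763 at P14, with no overlap.

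Hosts of small nucleolar RNAs, noncoding transcripts of which several carry a TOP start, had 1 of 8 lower (12.5%) and 0 higher (median -0.61). Over all genes tested, 10% were called lower and 10.8% higher. Gas5 was not called in this step (log2 fold change -0.55, SE 0.22, limma adjusted p = 0.091) but fell from P14 to P28 (log2 fold change -0.85, SE 0.22, limma adjusted p = 0.0193), a call lost without P14 replicate 3 and with only the time points compared. Snhg1 had 557, 526 and 553 at P7 and 322, 313 and 647 at P14 (log2 fold change -0.44, SE 0.37, limma adjusted p = 0.463), with overlap. Of 15 regulators of growth and TOP mRNAs, 1 was lower (6.67%) and 0 higher (median -0.10). That one was Larp1, which binds TOP starts (log2 fold change -0.46, SE 0.15, limma adjusted p = 0.0443), and the call was lost with edgeR under either scaling, with limma and TMM scaling, without the filter, with the replicate block and in 8 of the 12 fits without a library (P1 replicates 1 and 3, each P7 replicate and each P14 replicate). Mtor, the kinase of mTORC1, had 1089, 1224 and 1336 at P7 and 1490.1, 1520.2 and 929.6 at P14 (log2 fold change 0.08, SE 0.22, limma adjusted p = 0.855).

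Mitochondrial ribosomal protein genes had 0 of 77 called in either direction from P7 to P14 (median 0.05), also 0 at an unadjusted p under 0.05. Of all 15464 genes tested, 2408 were higher and 2534 lower in this step at the unadjusted threshold. Over the whole span 10 were higher and 1 lower, with a median of 0.23. These are 12.99% and 1.30% of the list, against 14.6% and 20% of all genes tested. Mrpl52 had 736, 746 and 644 at P14 and 1157, 1384 and 2007 at P28 and rose between them (log2 fold change 1.06, SE 0.25, limma adjusted p = 0.0132), a call lost without P14 replicate 3. A further 514 tested genes had transcripts under 750 bases, the length class of many members. From P7 to P14, 37 of them were higher and 48 lower, with a median of -0.12. Over all genes tested, 10.8% were called higher and 10% lower in this step.

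**Figure D5:**
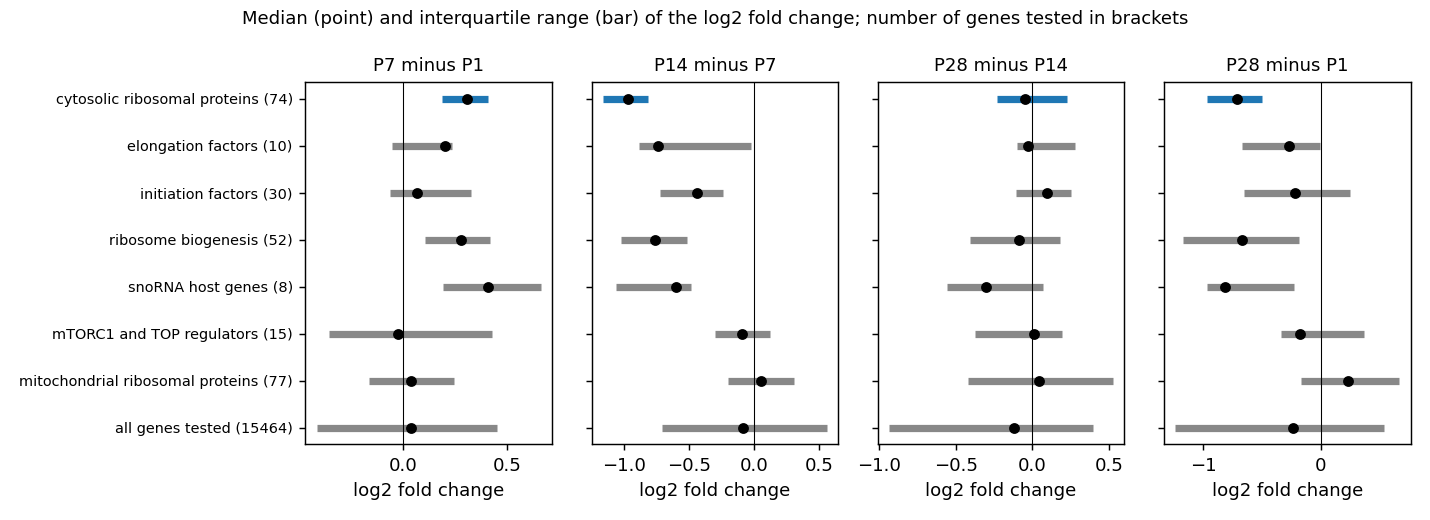
Median (point) and interquartile range (bar) of the log2 fold change for the tested members, 6 lists of related genes and all 15464 genes tested, in each of the 4 comparisons. From P7 to P14 the members had the lowest median, -0.97, followed by ribosome biogenesis at -0.77, with mitochondrial ribosomal proteins at 0.05.

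Marker transcripts of several cell types moved with these steps. The summed level of 8 markers of cycling cells (such as Mki67 and Top2a) ran from 8555 to 14878 (P1), from 19767 to 26148 (P7), from 687 to 1174 (P14) and from 27.0 to 109.6 (P28), and all 8 were lower at P14 than at P7. The 11 astrocyte markers had sums between 75702 and 90820 (P1), 32279 and 60679 (P7), 161613 and 203674 (P14), and 363419 and 427506 (P28), and none was listed at 0. They did not all move alike. From P7 to P14, 9 were called higher and 1 lower, against 10.8% and 10% of all genes tested. Over the span from P1 to P28, 9 were called higher and 2 lower, against 14.6% and 20%. The 7 oligodendrocyte lineage markers had sums between 4274 and 6447 at P1, 20729 and 31688 at P7, 292099 and 353040 at P14, and 92761 and 131753 at P28. The 7 neuron markers lay between 7351 and 12817, 14933 and 18380, 26386 and 45047, and 19213 and 24225 at the same time points, and the 9 markers of granule neurons and their precursors between 2391 and 4791, 11214 and 12193, 12914 and 23917, and 11274 and 12869. The 4 choroid plexus markers were low at P1, with sums from 273 to 751, and ran from 47740 to 127208 at P7, from 877 to 108741 at P14 and from 17738 to 182142 at P28. Of 5 red blood cell markers, 4 were at 0 in all libraries. The part of these cell types in the members' changes was not tested. The 45S ribosomal RNA precursor entry, Rn45s, took 2.01% to 3.93% of reads. The labels give the RNA as polyA, while the paper's methods describe libraries from total RNA and name no polyA selection. With the preparation thus unclear, the level of Rn45s is not read as a measure of ribosomal RNA.

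The fall was called in members with and without a pyrimidine run at the annotated start. Of 13 such members, 12 were tested and 9 were called lower from P7 to P14, with a median of -0.85, a lowest value of -1.68 (Rps15a) and a highest of -0.35 (Rpl38). Of the 42 other tested members with a window, 36 were called lower, with a median of -1.04. Over all genes tested, 10% were called lower in this step and the median was -0.09. Whether members with and without a run differed was not tested. Both Rps15a and Rpl38, printed above, start with a run of 8 pyrimidines.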

How the data were processed

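RNA of GFP-sorted cerebellar cells was measured in 12 libraries, 3 per time point. According to the paper's methods, reads were checked with FastQC and MultiQC, aligned to mm10 with STAR, counted per gene with GenomicAlignments on UCSC transcripts, and normalized with DESeq2. The submitters' processing notes name FastQC 0.11.7, MultiQC 1.11, STAR 2.5.0a and DESeq2 1.30.1, of which the paper's methods give the same version for STAR and other versions for the rest. Handling of shared reads and of strand is not given in the sources used here. The values deposited by the authors are a signal, namely counts divided by the size factor of their library. Dividing by the value of 1 read gave back whole reads for 100% of values (tolerance 0.01), which served for depth, read counts and the count-based alternatives. All 12 column names carry P28 whatever the age, so the time points rest on the labels. 0 columns were left unmatched. Nothing says whether replicates came from separate animals, so p-values measure the spread between these libraries.

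edgeR had been planned for raw counts. As the values are normalized, limma (3.58.1, R 4.3.3) was fitted to log2(value + 1) over all 12 libraries, one mean per time point, with a trended variance, for the 15464 genes that reached 10 in 3 or more libraries, and p-values were Benjamini-Hochberg adjusted over these. Fold changes are on that scale, which understates changes of low genes. Intervals and the limit of 3 reads behind a count of 0 cover counting error only. Annotation came from GENCODE M21 on GRCm38, with 23350 entries matched by symbol and 1071 unmatched. Lengths are the median over a gene's basic transcripts with a RefSeq match, or over all its basic transcripts where none has one. Copies were sought with blastn over coding sequences.

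The members and gene lists were chosen with earlier results of these data known. Genes were named by rule: the 2 highest per length, for each comparison the 3 highest and 3 lowest tested fold changes, the 3 largest and smallest F, the paralogs, members called against the common direction, and the 2 most abundant genes of each list. Rpl37a, Rpl23a, Rpl31 and Eef1a2, and members named only in a count, fall outside it and were chosen after their values were seen, while some genes that the rule names are not reported here. Alternatives were edgeR (4.0.16) with TMM or with DESeq2's size factors, DESeq2 (1.42.0), library totals alone, pseudocounts of 0.1 and 10, 2 other filters, only the time points compared, the study's threshold, the replicate number as a block, and the fits without 1 library each. The limma, edgeR and DESeq2 fits and the relative scale were tested on simulated counts with known changes.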

Additional observations from a re-analysis of the deposited data

How the results depend on the processing

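The members' medians kept their sign in every alternative run except that from P14 to P28, which went from -0.05 to 0.01 without P14 replicate 3. The number of members called lower from P7 to P14 was 57 to 69 under other settings and 52 to 67 without 1 library each, and that from P1 to P28 was 34 to 66 and 37 to 53. From P1 to P7, the 0 members called higher became 2 with DESeq2, 3 with library totals alone, 1 with a pseudocount of 0.1 and 1 with a pseudocount of 10, 1 with a minimum of 10 reads in all libraries, 11 with only the time points compared, and 0 to 3 without 1 library each (1 without P14 replicate 2, P14 replicate 3, P28 replicate 1 or P28 replicate 3, and 3 without P28 replicate 2). From P14 to P28, the 1 member called higher became 2 with DESeq2 and 0 with library totals alone, without the filter on low values, with only the time points compared or with the replicate block, and 0 to 2 without 1 library each (2 without P1 replicate 2 or P28 replicate 1). The 0 called lower became 2 with DESeq2, 8 with library totals alone, 1 without the filter, 1 at the study's threshold and 0 to 2 without 1 library each (2 without any P28 library). Library totals alone moved the median of the members to -1.23 from P7 to P14, -0.28 from P14 to P28 and -1.15 from P1 to P28, while the median of all genes moved to -0.34, -0.35 and -0.67, and the summed level became 43.3% of P7 at P14 and 36.7% at P28. The causes were not tested. Of 3312 values for single named genes, 3075 kept sign and side of the threshold, 85 lost and 60 gained a call, and 92, over 37 gene and step pairs, changed sign with no call before or after.

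Same-numbered libraries share only a number: of 18 such pairs, 1 had a correlation of deviations over 0.1 (range -0.03 to 0.14), although 10 of 12 libraries were closest to their own number. With the replicate block, 64 members were called lower from P7 to P14, 50 from P1 to P28, and 0 higher in either of the other steps. The relative scale, the search for near-identical copies and the promoter letters were chosen after seeing the data.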
